A study of Mus musculus with 10 samples.

Results

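The AP-1 family of transcription factors was examined in the retinas of mice given either of 2 adeno-associated virus (AAV) vectors. The members were 10 genes chosen by symbol, namely Fos, Fosb, Fosl1, Fosl2, Jun, Junb, Jund, Atf3, Batf3 and Jdp2, and all 10 were found among the 57010 genes of the table. Of these, 8 passed the filter on low counts and were tested, while Fosl1 and Batf3 were not. The AAV2-GFP group was 5 mice injected into the vitreous with a green fluorescent protein (GFP) vector in the AAV2 capsid, a serotype long used for the inner retina. The AAV206-GFP group was 5 mice given the same reporter in the capsid called AAV206, which the study's title describes as specific for the retinal pigment epithelium (RPE). The mice were 6 to 8 weeks old, and bulk RNA was sequenced from the retina 14 days after the injection. All 10 mice carried a GFP vector and an injected eye. Uninjected retinas were not analysed here, and every difference sets one vector against the other. The labels do not give the strain, the sex or the promoter that drives GFP.

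AP-1 is a dimer of basic leucine zipper (bZIP) proteins. A Jun protein pairs with itself, with a Fos protein or with an ATF protein, and the pair binds short palindromes in promoters and enhancers known as the TPA response element and the cyclic AMP response element (CRE). Fos and Jun are immediate early genes, transcribed within minutes of a stimulus, and their proteins turn over fast. In the retina Jun and Atf3 are best known for their induction in ganglion cells after optic nerve injury, downstream of the dual leucine zipper kinase and the Jun N-terminal kinases (JNK), while Fos follows light and neuronal activity.

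Promoter windows are printed for Jun and Atf3, which passed the test described below, and for Fos, the best known partner of Jun. Each is the 250 bases before a RefSeq start site in the GRCm38.p6 build, read 5′ to 3′ on the gene's strand, with capitals marking a match to a searched motif. Jun lies at chr4:95052223-95052472, minus strand, Atf3 at chr1:191183334-191183583, minus strand, and Fos at chr12:85473640-85473889, plus strand.
Jun: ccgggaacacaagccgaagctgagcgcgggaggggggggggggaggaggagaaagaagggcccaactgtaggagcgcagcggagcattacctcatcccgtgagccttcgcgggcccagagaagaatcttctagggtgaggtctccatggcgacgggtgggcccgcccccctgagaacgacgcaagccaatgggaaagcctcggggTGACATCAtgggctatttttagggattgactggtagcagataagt
Atf3: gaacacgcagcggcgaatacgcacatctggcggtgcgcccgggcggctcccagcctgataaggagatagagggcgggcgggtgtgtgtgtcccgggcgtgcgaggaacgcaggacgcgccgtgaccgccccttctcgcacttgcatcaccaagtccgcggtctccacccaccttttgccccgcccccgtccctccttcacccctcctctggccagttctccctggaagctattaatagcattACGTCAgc
Fos: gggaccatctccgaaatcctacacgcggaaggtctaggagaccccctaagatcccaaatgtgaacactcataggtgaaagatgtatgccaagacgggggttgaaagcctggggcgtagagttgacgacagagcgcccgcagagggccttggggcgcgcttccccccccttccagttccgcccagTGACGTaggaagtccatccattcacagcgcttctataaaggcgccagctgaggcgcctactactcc

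The motifs searched on both strands were TGANTCA (the TPA response element), TGACNTCA (which takes in the full CRE), TGACGT (the core of the CRE, which overlaps TGACNTCA where N is G) and the CArG box of serum response factor. The Jun window held TGACATCA, from 45 to 38 bases before the start. The Fos window held TGACGT, from 66 to 61 bases before the start, and the Atf3 window held the same core on the other strand, from 8 to 3 bases before the start. One of the 3 Jdp2 windows also held TGACGT, from 114 to 109 bases before its start. RefSeq windows were matched for 9 members, with 11 windows in all. Of the 9, 4 held any of the first 3 motifs, in 4 of the 11 windows, beside 18.1% of the 32851 windows of all genes. Of all windows, 6.75% held TGANTCA, 7.49% TGACNTCA, 6.47% TGACGT and 1.47% a CArG box, and no member window held TGANTCA or a CArG box. A match says only that these letters are present in the window. Bases further from the start were not searched, so a motif missing here may still lie there.

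The genes lie on 7 chromosomes in the mouse annotation (GENCODE M21, GRCm38). Fos (chr12:85473890-85477273) and Jdp2 (chr12:85599027-85639878) have 121.8 kb between them. Batf3 (chr1:191097847-191108945) and Atf3 (chr1:191170296-191218039) are 61.4 kb apart. Jund (chr8:70698949-70700616) and Junb (chr8:84974484-84978718) share a chromosome. Jun (chr4:95049034-95052222) and Jund are annotated without an intron. Fosb lies at chr7:19302696-19310051, Fosl1 at chr19:5447547-5455946 and Fosl2 at chr5:32135801-32157842.

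AP-1 transcripts in these retinas were mainly those of the Jun genes and Fos. Levels between genes were compared as CPM, the count scaled to the library size after TMM adjustment, divided by the annotated exon length in kb. Jund, the Jun gene that is expressed steadily in most tissues, stood highest, with AAV2-GFP at 96.1 ± 15.3 CPM per kb and with AAV206-GFP at 75.1 ± 12.1 (SD, n = 5). In the same order of groups, Jun followed at 19.2 ± 1.22 and 14.2 ± 1.95 CPM per kb, Fos at 13.6 ± 1.83 and 11 ± 2, and Junb at 11.2 ± 1.76 and 8.83 ± 1.45. Jdp2, a Jun dimerization partner that represses AP-1 targets, stood at 6.03 ± 1.04 and 4.95 ± 0.626 CPM per kb, and Atf3 at 5.30 ± 0.410 and 3.84 ± 0.555. Fosl2 (1.81 ± 0.0803 and 1.47 ± 0.515) and Fosb (0.598 ± 0.120 and 0.529 ± 0.176) were the lowest of the tested genes.

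Jund exceeded Jun, Jun exceeded Fos, Junb exceeded Jdp2, Atf3 exceeded Fosl2 and Fosl2 exceeded Fosb in all 10 mice. Fos exceeded Junb in 8 of 10 mice and Jdp2 exceeded Atf3 in 8 of 10, so these neighbours in the order were not separated in every mouse. Exon lengths are those of the annotation, not of the isoforms present.

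**Figure D1:**
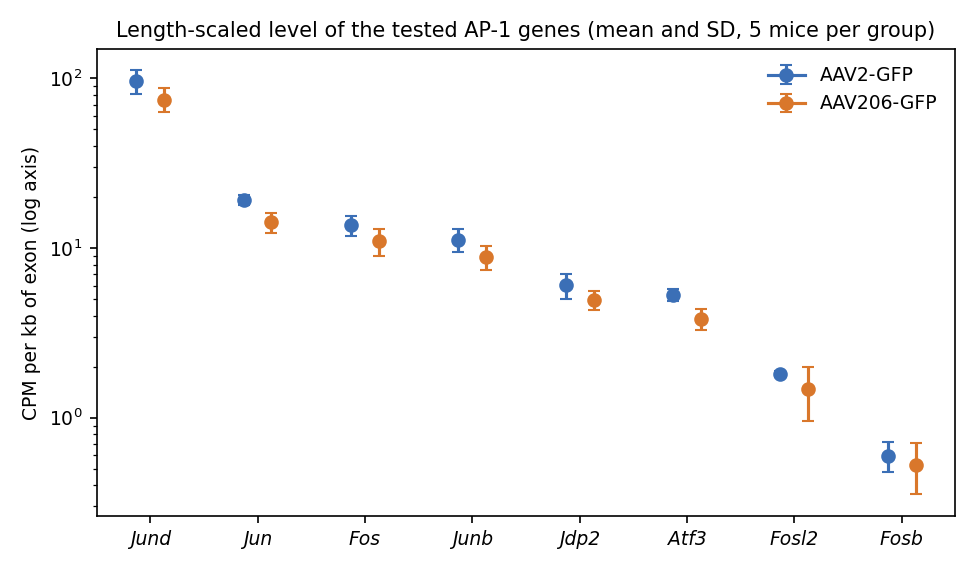
Length-scaled level of the 8 tested AP-1 genes, as CPM per kb of annotated exon on a log axis; points are means and bars SD over 5 mice per group (blue AAV2-GFP, orange AAV206-GFP). Jund stands apart at 96.1 and 75.1, Jun, Fos and Junb lie between 8.83 and 19.2, and Fosb is lowest at 0.598 and 0.529.

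Jun and Atf3 were lower with AAV206-GFP, by 25.8% and 27.4%, and no AP-1 gene passed as higher. With edgeR's quasi-likelihood test at an adjusted p-value under 0.05, 2 of the 8 tested members passed, both lower. Among all 15539 tested genes 11.2% passed in either direction, and 5.3% passed as lower. In Jun and Atf3 the groups did not overlap, which held for 9.78% of all tested genes in either direction and for 4.36% as lower. All 8 tested members had a log2 fold change under 0, with a median of -0.32, where 51.8% of all tested genes had one under 0 and the median was -0.0095.

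Jun, the member after which the Jun proteins are named and the main target of JNK, was measured at 57.7, 60.1, 67.7, 61.4 and 59.1 CPM in AAV2-GFP replicates 1 to 5. In AAV206-GFP replicates 1 to 5 it was at 42.7, 38.9, 45.7, 44.3 and 55.5 CPM. Every AAV206-GFP mouse lay below every AAV2-GFP mouse, with AAV206-GFP replicate 5 closest to the other group. The means were 61.2 ± 3.90 and 45.4 ± 6.20 CPM (SD, n = 5). The log2 fold change was -0.43 with a standard error of 0.09 (95% interval -0.61 to -0.25, edgeR adjusted p = 0.00471). Jun passed in all 21 alternatives, with adjusted p-values from 0.000141 to 0.0172. Its counts carried decimals in 2 libraries, a mark of reads shared with another gene, so its level there is slightly uncertain.

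Atf3, a stress-induced member that forms dimers with Jun, was at 12.4, 11.1, 12, 10.1 and 11.4 CPM in AAV2-GFP replicates 1 to 5. The AAV206-GFP mice had 7.91, 6.66, 8.19, 9.96 and 8.65 CPM. The groups did not overlap, although AAV206-GFP replicate 4 and AAV2-GFP replicate 4 were nearly equal. Mean levels were 11.4 ± 0.884 and 8.27 ± 1.20 CPM (SD, n = 5). The log2 fold change was -0.46 with a standard error of 0.13 (95% interval -0.74 to -0.19, edgeR adjusted p = 0.0329). When single libraries were left out Atf3 passed 4 times in 10, and it passed in 7 of 11 other alternatives. The call was lost without AAV2-GFP replicate 1, 3 or 5 or AAV206-GFP replicate 1, 2 or 3, with adjusted p-values up to 0.0850. With AAV2-GFP replicates 1 and 4 both left out, a pair picked from earlier results of these data, the adjusted p was 0.0710.

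**Figure D2:**
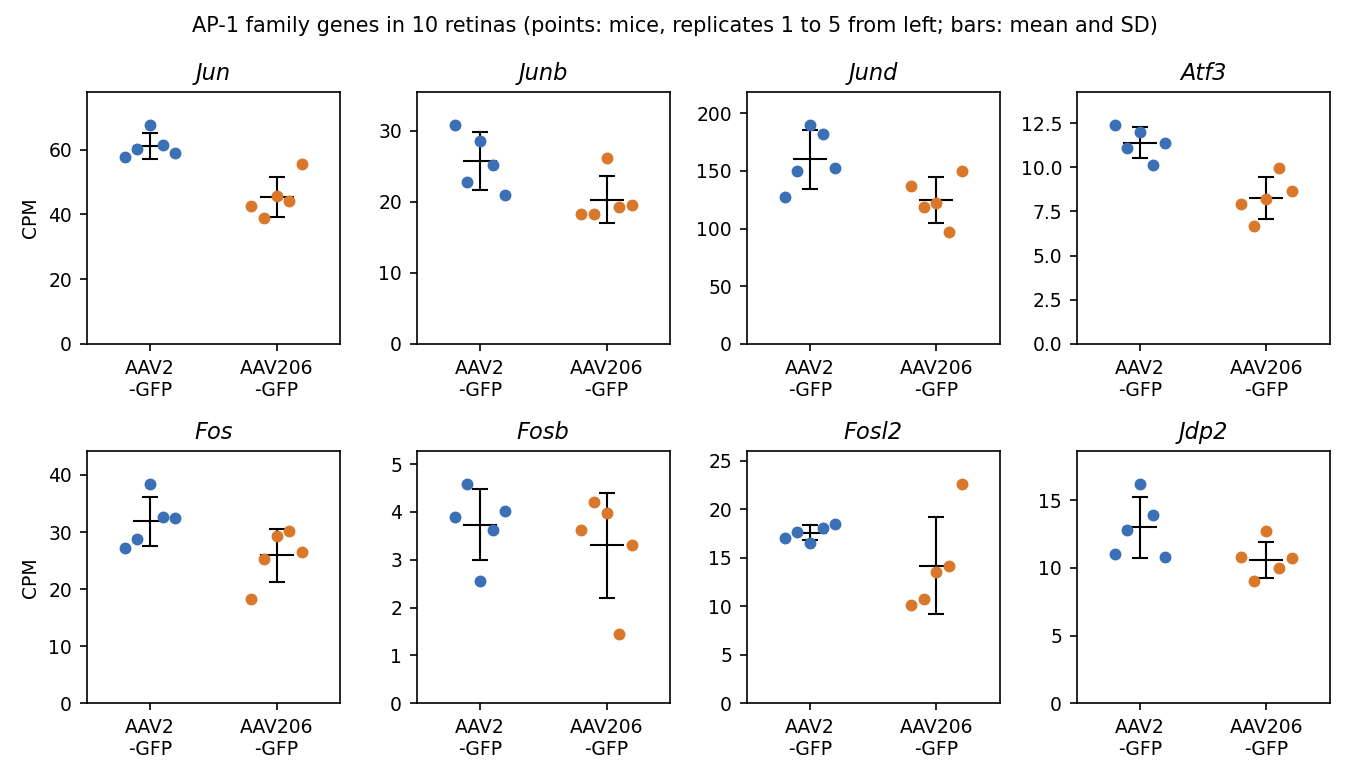
CPM of the 8 tested AP-1 genes in each of 10 retinas, 1 panel per gene, with points for mice (replicates 1 to 5 from left) and black bars for mean and SD. In the Jun and Atf3 panels all 5 AAV206-GFP mice lie below all 5 AAV2-GFP mice; in the other 6 panels the groups overlap.

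The other Jun genes, Jund and Junb, did not pass. Jund was at 127, 150, 190, 182 and 153 CPM in AAV2-GFP replicates 1 to 5 and at 137, 119, 122, 96.8 and 150 CPM in AAV206-GFP replicates 1 to 5. AAV206-GFP replicates 2, 3 and 4 lay below the lowest AAV2-GFP mouse, and AAV2-GFP replicate 1 was the mouse that overlapped the other group most. The log2 fold change was -0.36 with a standard error of 0.12 (95% interval -0.60 to -0.11, edgeR adjusted p = 0.0576). Jund passed without AAV2-GFP replicate 1 (adjusted p = 0.0174), without AAV206-GFP replicate 5 (0.0313), with DESeq2 (0.0241) and with no filter on low counts (0.0278). Its counts carried decimals in 7 libraries, so reads shared with another gene leave its level uncertain.

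Junb, which opposes Jun at some promoters and replaces it at others, was at 30.8, 22.7, 28.6, 25.2 and 21 CPM in AAV2-GFP replicates 1 to 5. In AAV206-GFP replicates 1 to 5 it was at 18.3, 18.3, 26.2, 19.2 and 19.5 CPM. All AAV206-GFP mice except replicate 3 lay below the lowest AAV2-GFP mouse. Its log2 fold change was -0.34 with a standard error of 0.12 (95% interval -0.60 to -0.07, edgeR adjusted p = 0.0884). Without AAV206-GFP replicate 3 it was -0.45, and Junb then passed (edgeR adjusted p = 0.0311).

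None of the 3 tested Fos genes passed with edgeR, DESeq2 or limma-voom, and 1, Fos, had an unadjusted p under 0.05 with edgeR. Fos was at 27.2, 28.8, 38.4, 32.7 and 32.5 CPM in AAV2-GFP replicates 1 to 5 and at 18.3, 25.2, 29.3, 30.2 and 26.5 CPM in AAV206-GFP replicates 1 to 5. AAV206-GFP replicates 1, 2 and 5 lay below the lowest AAV2-GFP mouse and the other 2 overlapped. The log2 fold change was -0.30 with a standard error of 0.12 (95% interval -0.57 to -0.04), and the unadjusted p of 0.0271 did not survive adjustment over all genes (edgeR adjusted p = 0.124). Fos did not pass in any of the 21 alternatives, where its adjusted p-values ran from 0.0573 to 0.276.

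Fosl2, a longer-lived Fos relative also called Fra-2, showed unequal spread in the groups. The AAV2-GFP mice lay close together at 17, 17.7, 16.5, 18.1 and 18.5 CPM. The AAV206-GFP mice were at 10.1, 10.7, 13.5, 14.1 and 22.6 CPM, so replicates 1 to 4 lay below every AAV2-GFP mouse and replicate 5 lay above every one. The log2 fold change was -0.31 with a standard error of 0.17 (95% interval -0.67 to 0.06, edgeR adjusted p = 0.263). Without AAV206-GFP replicate 5 it was -0.54 and passed (edgeR adjusted p = 0.0131).

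Fosb, the gene whose stable truncated product builds up on repeated stimulation of neurons, was low in both groups. It was at 3.89, 4.58, 2.55, 3.63 and 4.02 CPM with AAV2-GFP and at 3.62, 4.20, 3.97, 1.44 and 3.31 CPM with AAV206-GFP, in the order of the replicates. The groups overlapped widely, and the log2 fold change of -0.17 (standard error 0.26, 95% interval -0.73 to 0.39, edgeR adjusted p = 0.709) changed sign to 0.02 without AAV206-GFP replicate 4.

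Fosl1, also called Fra-1, had at most 2.30 estimated counts in any library and none in AAV206-GFP replicates 1 and 2. This is under the 3 counts taken as the floor of detection, which correspond to 0.235 to 0.273 CPM on the unadjusted library totals, so no comparison was made. Batf3, a factor needed for a class of dendritic cells, had 5, 0, 0, 3 and 2 counts in AAV2-GFP replicates 1 to 5 and 6, 0, 0, 0 and 2 in AAV206-GFP replicates 1 to 5. It was thus listed at 0 in 5 of the 10 mice and not tested.

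Jdp2 was at 11, 12.8, 16.2, 13.9 and 10.8 CPM in AAV2-GFP replicates 1 to 5 and at 10.8, 9.03, 12.7, 9.96 and 10.7 CPM in AAV206-GFP replicates 1 to 5. AAV2-GFP replicate 3 was highest and the groups overlapped. Its log2 fold change was -0.29 with a standard error of 0.14 (95% interval -0.58 to 0.01, edgeR adjusted p = 0.188), and Jdp2 passed in none of the alternatives.

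**Figure D3:**
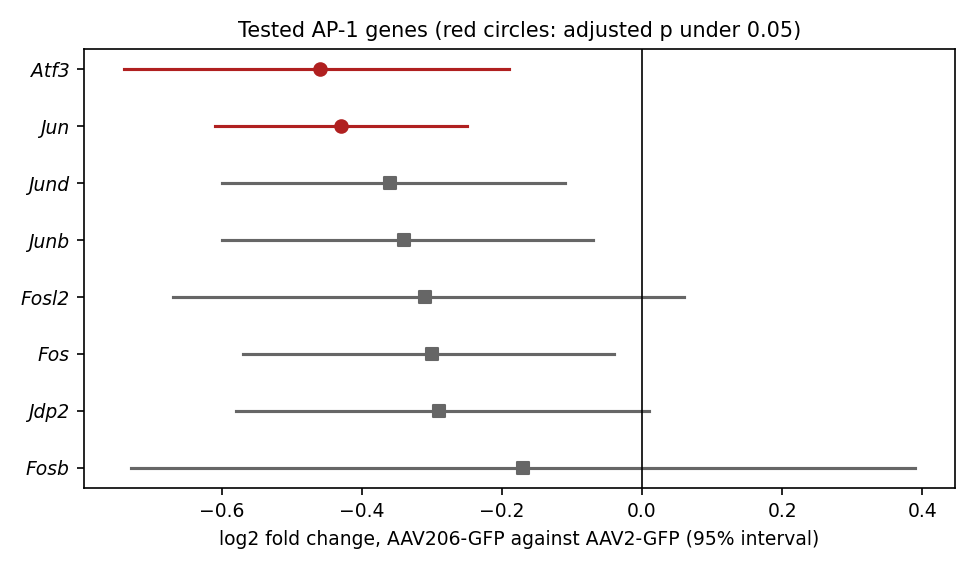
Log2 fold change of AAV206-GFP against AAV2-GFP for the 8 tested AP-1 genes, with 95% intervals from edgeR; red circles passed at an adjusted p under 0.05 and grey squares did not. All 8 estimates lie below 0, from -0.46 for Atf3 to -0.17 for Fosb, and the intervals of Fosl2, Jdp2 and Fosb reach across 0.

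Some mice were extreme for several members. How often the same mice were extreme over all tested genes was not counted, so these ranks are not shown to be particular to the family. AAV2-GFP replicate 3 had the highest level of 4 of the 8 tested genes (Fos, Jun, Jund and Jdp2) and ranked among the 3 highest mice for 6. AAV206-GFP replicate 2 had the lowest level of 4 (Jun, Junb, Atf3 and Jdp2) and ranked among the 3 lowest mice for 7. AAV206-GFP replicates 1 and 4 were among the 3 lowest for 5 genes each. The lowest level of each tested gene was in an AAV206-GFP mouse, and the highest was in an AAV2-GFP mouse for all but Fosl2.

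Genes that varied with Jun and Fos between mice of the same group were ranked by the Pearson correlation of deviations from the group mean, over 10 libraries. The 10279 genes ranked averaged 10 CPM or more, and all share the same libraries. Nearest to Jun were Usp21 (r = 0.95), Dusp1 (r = 0.95) and B4gat1 (r = 0.94). Dusp1 encodes a phosphatase of MAP kinases and is itself an immediate early gene. Nearest to Fos were Lrit2 (r = 0.94), mt-Cytb (r = 0.94) and mt-Co1 (r = 0.94), of which the last 2 are mitochondrial transcripts. These are the highest of many correlations over few mice and are given as a description.

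The genes around AP-1 were taken from 5 lists with 93 genes in all, of which 80 were tested. Of these 12 passed as lower and 4 as higher, which is 15% and 5% of the tested genes, beside 5.3% and 5.95% of all tested genes. The median log2 fold change over the 80 genes was -0.13. The mouse left out moved the number that passed, from 7 without AAV2-GFP replicate 4 to 19 without AAV206-GFP replicate 5, and 6 of the 16 genes passed each time.

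Among the other bZIP genes that pair with AP-1 proteins, 4 of 12 tested genes passed, all lower, and the median log2 fold change was -0.25. This is 33.3% of the list, beside 5.3% of all tested genes as lower. Maff, a small Maf protein without an activation domain, fell from 2.81 ± 0.828 to 1.32 ± 0.233 CPM (SD, n = 5; log2 fold change -1.09, edgeR adjusted p = 0.0174). Its call was lost without AAV2-GFP replicate 3, and its counts carried decimals in 2 libraries. Ddit3, the stress factor CHOP, fell from 39.3 ± 5.39 to 29.4 ± 2.55 CPM (log2 fold change -0.42, edgeR adjusted p = 0.0112), with no overlap between the groups. Mafg (log2 fold change -0.24, edgeR adjusted p = 0.0436) and Atf4 (log2 fold change -0.26, edgeR adjusted p = 0.0486) passed narrowly, and each stayed past the threshold in only 3 of 10 fits with a library left out. Nrl, the Maf relative that specifies rods, did not pass, at 1900 ± 72.4 and 1750 ± 141 CPM (edgeR adjusted p = 0.194); it and the other genes described as not passing in the lists were picked after their values were seen.

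In the JNK pathway, which phosphorylates Jun, 2 of 15 tested genes passed, both higher, and the median log2 fold change was 0.00. That is 13.3% of the list, beside 11.2% of all tested genes in either direction and 5.95% as higher. Map3k13 encodes leucine zipper kinase, the relative of dual leucine zipper kinase that acts beside it in injured ganglion cells. It ranged from 56.1 to 76.4 CPM with AAV2-GFP and from 79.3 to 109 CPM with AAV206-GFP, with a change of 0.45 on the log2 scale (SE 0.09, edgeR adjusted p = 0.00527). Mapk9, which encodes JNK2, ranged from 154 to 170 CPM and from 181 to 206 CPM, with a change of 0.30 on the log2 scale (SE 0.06, edgeR adjusted p = 0.00457). Both genes were without overlap, as were 9.78% of all tested genes in either direction. Both passed in every alternative, and Map3k13 carried decimals in 5 libraries. Map3k12, which encodes dual leucine zipper kinase itself, was at 95.3 ± 5.31 and 91.1 ± 10.3 CPM with decimals in all 10 libraries (edgeR adjusted p = 0.613), and Mapk8, which encodes JNK1, was at 90.7 ± 5.13 and 91.2 ± 8.58 CPM (SD, n = 5; edgeR adjusted p = 0.957). Transcript levels do not measure the activity of these kinases.

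Among the genes that carry signals to the Fos promoter, 4 of 20 tested genes passed as lower and 2 as higher, with a median log2 fold change of -0.14. These are 20% and 10% of the list, beside 5.3% and 5.95% of all tested genes. Map2k2, which encodes the kinase MEK2, fell from 86.4 ± 5.56 to 68.0 ± 8.87 CPM (SD, n = 5; log2 fold change -0.34, edgeR adjusted p = 0.0152). Map2k1, which encodes MEK1, had a log2 fold change of -0.26 (edgeR adjusted p = 0.0448). Srf, serum response factor, had -0.29 (edgeR adjusted p = 0.0386).

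The coactivators of serum response factor moved in opposite directions. Mrtfa fell from 34.7 ± 1.80 to 28.2 ± 3.61 CPM (log2 fold change -0.30, edgeR adjusted p = 0.0400), while Mrtfb rose from 33.8 ± 5.51 to 45.9 ± 4.62 CPM (SD, n = 5; log2 fold change 0.44, edgeR adjusted p = 0.0141). Crtc1, a coactivator of CREB, also passed as higher (log2 fold change 0.26, edgeR adjusted p = 0.0381). With single libraries left out, Map2k2 and Mrtfb passed in all 10 fits, Crtc1 in 4, and Map2k1, Mrtfa and Srf in 3 each. With AAV2-GFP replicates 1 and 4 both left out, Mrtfb did not pass (edgeR adjusted p = 0.0681).

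Among other immediate early genes, 3 of 19 tested genes passed, all lower, and 17 of 19 had a log2 fold change under 0, with a median of -0.28. The shares were 15.8% and 89.5%, beside 5.3% and 51.8% of all tested genes. Klf4 fell from 3.74 ± 0.791 to 1.83 ± 0.521 CPM (SD, n = 5; log2 fold change -1.03, edgeR adjusted p = 0.0173), a call lost without AAV2-GFP replicate 4. Klf6, a zinc finger factor also linked to axon growth, had a log2 fold change of -0.47 (edgeR adjusted p = 0.0314), and Ccn2, a matricellular protein, had -0.41 (edgeR adjusted p = 0.0478). With single libraries left out, Klf6 passed in 5 and Ccn2 in 2 of 10 fits. The counts of Ccn2 carried decimals in 7 libraries, so its level is uncertain in the way of Jund. Egr1, the classical companion of Fos, did not pass, at 47.5 ± 3.52 and 44.7 ± 18.5 CPM (SD, n = 5; edgeR adjusted p = 0.803), and in AAV206-GFP replicates 1 to 5 it was at 24.6, 32.6, 55.5, 70.6 and 40.1 CPM.

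Of 23 genes known to respond to AP-1 in injury, growth or inflammation, 14 were tested and 1 passed. It passed as lower, which is 7.14% of those tested, beside 5.3% of all tested genes as lower and 11.2% in either direction. Of the 14, 11 had a log2 fold change under 0, which is 78.6% beside 51.8% of all tested genes, with a median of -0.15. Ccnd1, the cyclin D1 gene, ranged from 21.1 to 25.2 CPM with AAV2-GFP and from 13.5 to 19.8 CPM with AAV206-GFP, with a change of -0.50 on the log2 scale (SE 0.10, edgeR adjusted p = 0.00625). It passed in every alternative, but reads shared with another gene (decimals in 10 of 10 libraries) leave its level uncertain. The axon growth gene Gap43 had a log2 fold change of -0.09 (edgeR adjusted p = 0.616). The injury genes Sprr1a and Gal, like Timp1, Plaur and Il6, did not pass the filter on low counts.

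**Figure D4:**
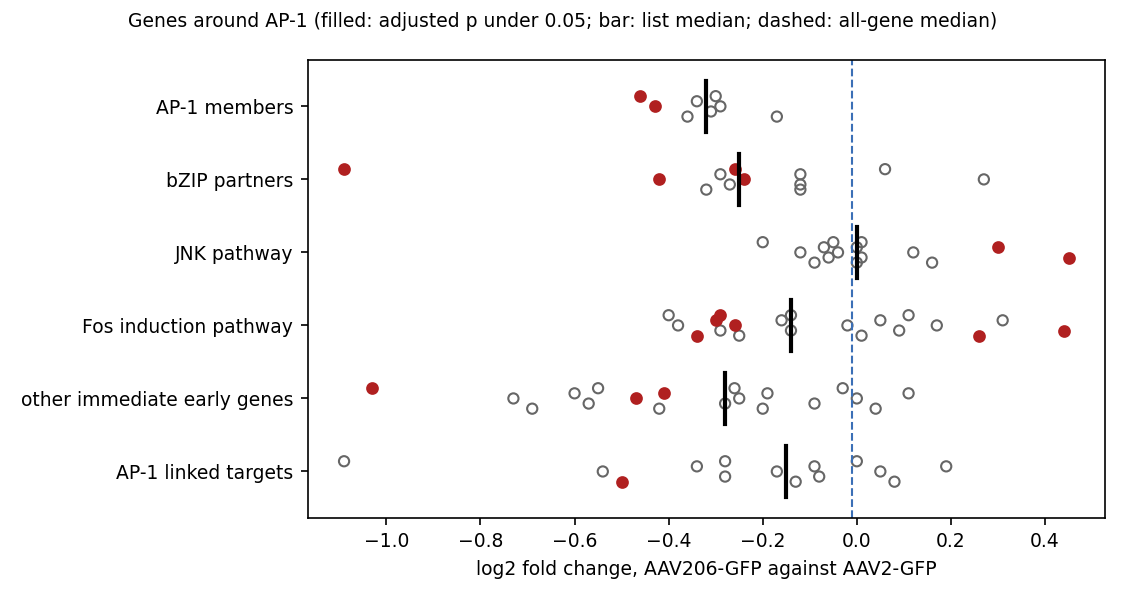
Log2 fold change of AAV206-GFP against AAV2-GFP for each tested gene of the AP-1 family and of the 5 lists around it; filled red points passed at an adjusted p under 0.05, black bars are list medians and the dashed line is the median of all tested genes (-0.0095). List medians run from -0.32 for the family to 0.00 for the JNK pathway.

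Sequencing depth and cell type markers bear on these values. Total counts ran from 11096756 to 12752604 per library with AAV2-GFP and from 10989843 to 12011327 with AAV206-GFP. Rod and cone markers were expressed in every library, as the label retina implies. The marker counts here and in the paragraphs that follow stand beside 5.3% of all tested genes that passed as lower and 5.95% as higher. Summed rod markers were between 51400 and 54800 CPM with AAV2-GFP and between 55200 and 60800 CPM with AAV206-GFP, and summed cone markers between 811 and 915 and between 922 and 978 CPM, so both sums were higher in every AAV206-GFP mouse; 2 of 7 rod and 2 of 6 cone markers passed as higher. In whole retina, fewer cells of a type and less RNA per cell cannot be told apart. Summed ganglion cell markers overlapped, at 1030 to 1200 and 968 to 1100 CPM, and of 10 tested 1 passed, as lower. Summed Müller glia markers overlapped too, at 3320 to 4190 and 3080 to 3700 CPM, with a median log2 fold change of -0.19 over 7 markers of which 6 had an estimate under 0. Amacrine markers (632 to 715 and 656 to 740 CPM) and horizontal cell markers (66.3 to 97.8 and 71.7 to 92.9 CPM) overlapped as well.

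Bipolar cell markers summed to 835 to 1160 CPM with AAV2-GFP and to 719 to 1220 CPM with AAV206-GFP. The lowest sum, 719 CPM, was in AAV206-GFP replicate 5, beside 1010 to 1220 CPM in the other AAV206-GFP mice. Replicate 5 is also the mouse without which 4 members passed in place of 2. Of 6 bipolar markers 1 passed, Grm6, as lower (log2 fold change -0.66, edgeR adjusted p = 0.00225), with decimals in all 10 libraries. Endothelial markers summed to 291 to 337 and 288 to 329 CPM, where 3 of 7 passed, Cldn5 and Kdr as lower and Flt1 as higher. That is 42.9% of these markers, beside 11.2% of all tested genes in either direction.

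Microglia and macrophage markers summed to 27.2 to 239 CPM with AAV2-GFP, the highest in replicate 1, and to 22.4 to 31.1 CPM with AAV206-GFP. AAV2-GFP replicates 3, 4 and 5, at 53.1, 46.1 and 32.7 CPM, also lay above every AAV206-GFP mouse, and replicate 2 at 27.2 CPM overlapped them. Of 8 tested markers 2 passed as lower, and all 8 had an estimate under 0, with a median log2 fold change of -1.32. Lymphocyte markers summed to 24.3 CPM in AAV2-GFP replicate 1 and to at most 1.35 CPM in the other mice. Without AAV2-GFP replicate 1 the log2 fold change was -0.43 for Atf3 (edgeR adjusted p = 0.0523), and Jun passed. Lens markers summed to 11.9 to 32.1 and 1.55 to 13 CPM, where 2 of 3 tested passed as lower and 1 of the 8 listed was at 0 in every library. The overlap of the lens sums came from AAV206-GFP replicate 1 at 13 CPM, while the other AAV206-GFP mice were at 1.55 to 1.9 CPM. Erythrocyte markers summed to 67.8 to 85.8 and 101 to 319 CPM, where 4 of 5 passed as higher. RPE markers summed to 13.3 to 39.8 and 15 to 23.8 CPM. Of 5 tested RPE markers 1, Rgr, passed as lower (log2 fold change -0.79, edgeR adjusted p = 0.0328), and all 5 had an estimate under 0, with a median of -0.56. The overlap of the RPE sums came from AAV2-GFP replicate 2 at 13.3 CPM, while the other 4 AAV2-GFP mice, at 28.8 to 39.8 CPM, lay above every AAV206-GFP mouse. The part of these cell types in the AP-1 differences was not tested.

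Base composition and transcript length moved with the fold changes over all genes. In the 3822 tested genes with the most GC the median log2 fold change was -0.085, against 0.032 in the 3822 with the least. In the 3822 with the shortest transcripts it was -0.11, against 0.067 in the 3822 with the longest. Of the 8 tested members, 5 (Fosb, Jun, Junb, Jund and Jdp2) were among those with the most GC and 5 (Fos, Junb, Jund, Atf3 and Jdp2) among those with the shortest transcripts. With offsets per library for deciles of GC the log2 fold change was -0.37 for Jun and -0.45 for Atf3, and both passed (edgeR adjusted p = 0.00649 and 0.0345). With offsets for deciles of length it was -0.42 for Jun, which passed, and -0.41 for Atf3, which did not (edgeR adjusted p = 0.00308 and 0.0564). Under the GC offsets Junb had -0.22 and Jund -0.25 (edgeR adjusted p = 0.303 and 0.0632). Of the pathway list genes, 8 passed as lower with GC offsets and 13 with length offsets, in place of 12. Over all genes, 838 and 862 passed as lower, in place of 823. These offsets were chosen after the data were seen.

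**Figure D5:**
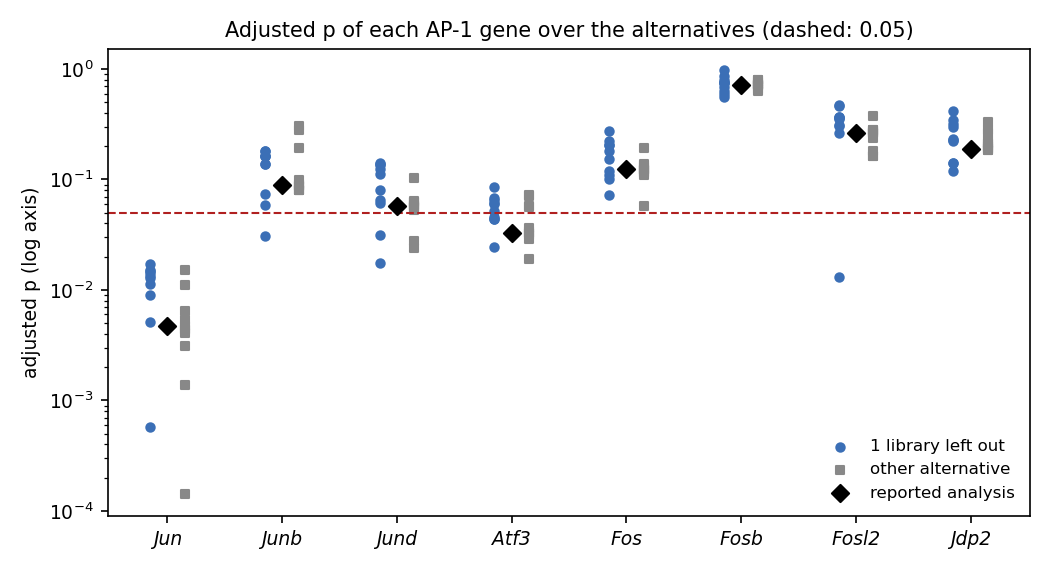
Adjusted p of each tested AP-1 gene on a log axis under the reported analysis (black diamonds), with 1 library left out (blue circles) and under the other alternatives (grey squares); the dashed line is 0.05. All points of Jun lie under the line, at most at 0.0172, those of Junb, Jund, Atf3 and Fosl2 lie on both sides, and those of Fos, Fosb and Jdp2 lie above it.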

How the data were processed

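Retinal RNA of 10 mice was sequenced in read pairs of 150 bases, and samples were grouped by their titles into AAV2-GFP and AAV206-GFP. The authors deposited estimated counts for each gene, without scaling, and 15.7% of those above 0 carried decimals. STAR 2.7.10b, RSEM 1.3.1 and the mm10 build are named, without roles, per the submitters' processing notes; the annotation is not given in the sources used here. GENCODE M21 named 52029 of the 57010 rows and 98.4% of the tested genes. Promoter sequences came from RefSeq.

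Estimated counts were rounded to whole numbers and fitted over all genes with edgeR 4.0.16 in R 4.3.3 (filterByExpr with a minimum count of 10, TMM factors, quasi-likelihood F test without covariates, Benjamini-Hochberg threshold 0.05). Standard errors came from the log2 fold change and the square root of F. CPM used TMM-adjusted library sizes. Depth was 10989843 to 12752604 counts per library. The floor of 3 counts covers counting error only, since amplified reads without molecular identifiers are not independent molecules. Libraries of a group differed by 3.74 to 23.1 chi-square per degree of freedom, so none was a duplicate. The series' design names 5 mice per group, which is the number of libraries.

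Alternatives used other scalings, no filter, DESeq2 1.42.0, limma-voom (limma 3.58.1), unrounded counts, the replicate number as a block, libraries left out, and GC or length offsets. The procedure was tested on simulated data, where it recovered 73.7% of 2-fold and 57.1% of 1.5-fold changes. Of its 134 calls 5 were false. The simulation changed 197 of 15348 genes, where 1747 passed in the real data. Its values were drawn independently, without mice that stand apart or shifts by GC or length, so these rates may not hold for the real data. Smaller changes were not simulated, so a gene that did not pass may still differ. The members and lists were chosen with earlier results of these data known. All members are named, and from each list up to 6 genes past the threshold, taken by p-value, and the 3 genes varying most like Jun and like Fos; others named were chosen after their values were seen.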

Additional observations from a re-analysis of the deposited data

Results flagged for a closer look

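In AAV206-GFP replicate 3 Junb was at 26.2 CPM, while the other 4 AAV206-GFP mice lay between 18.3 and 19.5 CPM, a gap to the nearest mouse of 0.852 of the group's range. This was the 1 value taken up among 20 groups of 5 mice examined, where chance gives about 1.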

How the results depend on the processing

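Of 168 values of single members under the alternatives, 151 kept direction and side of the threshold, 10 lost and 6 gained a call, and 1 changed sign (Fosb, a log2 fold change of -0.2843 to 0.0169 with a library left out). The number of members that passed was 2 or 3 with other scalings, no filter, unrounded counts, DESeq2, limma-voom and GC offsets. With no filter the 2 were Jun and Jund, and Atf3 did not pass (edgeR adjusted p = 0.0572). The number was 1 (Jun) with length offsets, with the replicate block (Atf3 edgeR adjusted p = 0.0727), and with AAV2-GFP replicates 1 and 4 left out. It was 1 to 4 with a library left out (1 without AAV2-GFP replicate 3 or 5 or AAV206-GFP replicate 1 or 2, and 4 without AAV206-GFP replicate 5). Without AAV2-GFP replicate 1 the 2 were again Jun and Jund. For all genes, 1747 passed, against 1085 with the replicate block, 985 without AAV2-GFP replicates 1 and 4, and 991 (without AAV2-GFP replicate 4) to 1912 (without AAV2-GFP replicate 1) with a library left out. For the pathway lists, 16 passed, against 10 with the block, 8 without those 2 mice and 7 to 19 with a library left out. With upper-quartile factors 13 passed, with GC offsets 12 and with length offsets 16. Causes were not tested. Replicate numbers did not pair the mice: deviations of same-numbered mice correlated across genes at -0.052 to 0.040, and in no case best with their own number. Depth limits Fosl1 and Batf3, which lay at or near the floor of 3 counts.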
